A study of Mus musculus with 16 samples.

Results

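The motile cilium genes Foxj1, Tekt1, Tekt2, Tekt4, Rsph1, Spag16, Spa17, Dynlrb2 and Dnah5 were followed in mouse lungs exposed to cigarette smoke before birth, in adult life, or both. They were taken by name as markers of the ciliated cells of the airway, and every probe set that the array's annotation assigns to one of them was used: 12 probe sets for 9 genes, of 45037 probe sets and 18193 named genes tested. Spag16 had 4 probe sets and the other members 1 each.

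The lungs were left lungs of male Balb/c mice aged 15 weeks, and total RNA of each was hybridised to an Affymetrix mouse expression array. SS mice had breathed second-hand smoke (SHS, the sidestream smoke of cigarettes) both in utero and as adults, SA mice SHS in utero and filtered air as adults, AS mice filtered air in utero and SHS as adults, and AA mice filtered air at both times. During exposures the smoke held 10 mg/m3 of particles and was given for 5 hours a day, 7 days a week. There were 4 arrays a group, but AS replicates 3 and 4, and SS replicates 1 and 2, were near-identical (a ratio of 1.35 and 1.24 between their differences at variable and at stable probe sets, against 2.84 to 5.96 in the other 22 pairs), so each pair was averaged and counted once. This left 3 SS, 4 SA, 3 AS and 4 AA samples. Values are log2 expression as the authors deposited them, with array medians of 6.90 to 6.93, and the 4 groups share 1 fit. The labels call the animals biological replicates and name no litters, so the p-values measure the spread between these lungs.

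Motile cilia line the conducting airways and beat to carry mucus and trapped particles out of the lung. Their core, the axoneme, is a ring of doublet microtubules around a central pair: dynein arms slide the doublets past each other, radial spokes and the central pair time the stroke, and tektins run along the doublets as stabilising filaments. The programme is switched on by the forkhead factor Foxj1 together with RFX factors, which bind a DNA element called the X-box in many cilium gene promoters. Ciliated cells are a small part of a whole lung, so a level measured here depends both on how many such cells the piece held and on how much RNA each made, and the 2 cannot be told apart.

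The defining markers were all measured. At the probe set with the highest mean of each gene (called the brightest), the mean log2 value lay between the 52.1th percentile of all probe sets (Tekt4) and the 92.0th (Dynlrb2), with Foxj1 at the 72.0th. The 3 other probe sets of Spag16 were dim, at the 33.4th, 9.25th and 5.40th percentile, and none passed a test (limma, adjusted p of 0.510 to 0.996 over the 8 comparisons). No detection call was made from these values. Club cell markers of the same airways were bright (Scgb1a1 at 14.95, Cyp2f2 at 14.36), as were those of the alveoli (Sftpc at 15.07, Ager at 14.40).

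A sequence feature that their choice did not use was found in some of the members. RefSeq promoter windows (GRCm38.p6, 250 bases before to 50 bases after a start site) were at hand for 7 of the 9 genes, and 5 of these held the X-box half-site GTTGCC, read on either strand, in at least 1 window. Of all 27025 genes with a window, 14.1% held it, and of 125 other genes of the cilium lists described later, 54 (43.2%) did. For each of the 5 genes, 1 window with a match follows, 5′ to 3′ on the gene's strand, with each half-site in capitals. Tekt1 and Spag16 come first because they had the largest mean adult effects at the brightest probe sets.
Tekt1, chr11:72361833-72362132, minus strand: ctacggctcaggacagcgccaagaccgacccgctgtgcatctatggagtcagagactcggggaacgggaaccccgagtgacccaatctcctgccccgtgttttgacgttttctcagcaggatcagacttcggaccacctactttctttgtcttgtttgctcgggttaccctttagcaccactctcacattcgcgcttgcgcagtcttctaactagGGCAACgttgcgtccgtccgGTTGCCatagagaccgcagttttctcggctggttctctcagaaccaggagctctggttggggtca
Spag16, chr1:69826720-69827019, plus strand: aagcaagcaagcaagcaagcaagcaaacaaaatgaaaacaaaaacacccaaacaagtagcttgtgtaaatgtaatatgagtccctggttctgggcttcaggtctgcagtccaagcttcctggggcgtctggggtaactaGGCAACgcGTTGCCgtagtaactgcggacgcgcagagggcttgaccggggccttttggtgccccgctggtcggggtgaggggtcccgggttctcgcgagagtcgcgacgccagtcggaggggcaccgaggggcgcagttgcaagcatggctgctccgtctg
Tekt2, chr4:126325639-126325938, minus strand: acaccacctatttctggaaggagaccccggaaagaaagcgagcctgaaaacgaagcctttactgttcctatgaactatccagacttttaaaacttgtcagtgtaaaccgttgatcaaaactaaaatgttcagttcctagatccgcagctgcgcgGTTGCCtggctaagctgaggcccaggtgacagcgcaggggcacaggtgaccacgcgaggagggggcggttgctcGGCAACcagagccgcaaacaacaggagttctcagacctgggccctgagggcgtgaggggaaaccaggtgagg
Tekt4, chr17:25471340-25471639, plus strand: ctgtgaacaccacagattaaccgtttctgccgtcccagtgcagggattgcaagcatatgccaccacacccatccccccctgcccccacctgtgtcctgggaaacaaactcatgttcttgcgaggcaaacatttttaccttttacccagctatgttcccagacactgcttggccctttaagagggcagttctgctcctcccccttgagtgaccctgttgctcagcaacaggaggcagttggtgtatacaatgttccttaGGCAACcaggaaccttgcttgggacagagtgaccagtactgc
Dynlrb2, chr8:116504765-116505064, plus strand: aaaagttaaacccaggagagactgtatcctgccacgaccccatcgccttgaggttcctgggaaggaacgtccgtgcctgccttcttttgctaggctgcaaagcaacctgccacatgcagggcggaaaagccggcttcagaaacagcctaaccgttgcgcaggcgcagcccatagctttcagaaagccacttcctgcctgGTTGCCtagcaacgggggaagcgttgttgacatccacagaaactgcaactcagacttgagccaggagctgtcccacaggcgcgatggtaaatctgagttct
In the Tekt1 window shown the half-sites began at -35 and -15 bases from the start site, and in that of Spag16 at -111 and -103. They began at -96 and -22 in the Tekt2 window shown and at -51 in Dynlrb2. In Tekt4 the match began at 9, after the start site. Another Tekt2 window, chr4:126325597-126325896, held half-sites at -138 and -64 from its own start site. Tekt1 and Tekt2 each also had a window without the half-site. The windows of Spa17 and Dnah5 did not hold these letters. A single form of the full X-box was searched, GTTNCC followed by GGNAAC with 2 bases between them (in 0.529% of genes). It can contain the half-site. Neither this form nor the forkhead core TGTTTAC (either strand, in 4.05% of genes) was found in any of the 7. Forms of the X-box with other letters or another spacing were not searched, so the windows may hold them. A match of letters describes the window and is not a measured binding site.

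Foxj1, a forkhead factor that drives motile cilium genes, did not pass the test in any comparison. Its log2 values were 8.46, 8.52 and 8.56 in SS lungs, against 8.52, 8.56, 8.62 and 8.497 in SA lungs. They were 8.51, 8.68 and 9.04 in AS lungs, against 8.58, 8.88, 8.58 and 8.48 in AA lungs. The one AS value above 9 came from the averaged replicates 3 and 4, at 9.03 and 9.05 on the single arrays, and the other AS lungs lay within the AA range. The difference was 0.11 ± 0.11 for AS minus AA (SE of the fit, limma, adjusted p = 0.583) and -0.03 ± 0.11 for SS minus SA (adjusted p = 0.928), with 95% intervals of -0.13 to 0.36 and -0.28 to 0.21. Without the averaged AS replicates 3 and 4, AS minus AA turned to -0.04, and with array weights to -0.01. The mean effect of smoke in utero was -0.16 ± 0.08 (limma, adjusted p = 0.459), and -0.08 without the same averaged replicates.

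Of the tektins, Tekt1 fell after adult smoke. Over both in-utero groups the effect of adult smoke was -0.19 ± 0.05 (a log2 difference), which is 0.878-fold (adjusted p = 0.0457 by limma, 95% interval -0.30 to -0.08). It was the only member past the threshold of 0.05 in that comparison, where 5.95% of all probe sets passed and 3.13% were lower, so 1 of 12 is close to the background. Its values were 7.60, 7.73 and 7.45 in SS lungs, against 7.73, 7.85, 7.80 and 7.71 in SA lungs. They were 7.73, 7.68 and 7.62 in AS lungs, against 7.87, 7.91, 7.93 and 7.79 in AA lungs. Every AS lung lay below every AA lung, whereas the highest SS lung overlapped the SA range. The 2 adult effects were -0.20 ± 0.07 in AS minus AA (limma, adjusted p = 0.158) and -0.18 ± 0.07 in SS minus SA (adjusted p = 0.273; -0.105 without SS replicate 4), and their difference was 0.02 (95% interval -0.20 to 0.24). Smoke at both times against neither gave the largest Tekt1 difference, -0.28 ± 0.07 or 0.823-fold (limma, unadjusted p = 0.00159, adjusted p = 0.137), with no overlap between SS and AA.

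The Tekt1 call stood close to the threshold. It was lost in 11 of the 14 fits that left out 1 sample: SS averaged replicates 1 and 2, SS replicate 4, SA replicates 1, 2 and 3, AS replicates 1 and 2, AS averaged replicates 3 and 4, or AA replicates 1, 2 and 3 (limma, adjusted p of 0.0545 to 0.110, effects of -0.20 to -0.15). It was also lost with each sample centred on its median (adjusted p = 0.0538), with quantile normalization (adjusted p = 0.0909) and with a trended, robust variance (adjusted p = 0.0549). The direction was the same in all of these.

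Tekt2 had 7.06, 7.23 and 7.14 in SS lungs, against 7.32, 7.24, 7.38 and 7.21 in SA lungs, and 7.15, 7.06 and 7.31 in AS lungs, against 7.31, 7.48, 7.31 and 7.13 in AA lungs. The groups overlapped in both comparisons, and the mean adult effect was -0.14 ± 0.06 (limma, unadjusted p = 0.0405, adjusted p = 0.180). Tekt4 lay on the other side of 0, with a mean adult effect of 0.10 ± 0.05 (limma, adjusted p = 0.282). Its values were 7.03, 7.00, 7.05 and 6.83 in SA lungs, against 7.08, 7.12, 7.17 and 7.05 in AA lungs. These 2 groups did not overlap, the only such case among the 12 probe sets in SA minus AA, where 1.69% of all probe sets were lower without overlap. That difference of -0.13 ± 0.07 did not pass (limma, adjusted p = 0.853), and it was -0.08 without SA replicate 4.

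**Figure D1:**
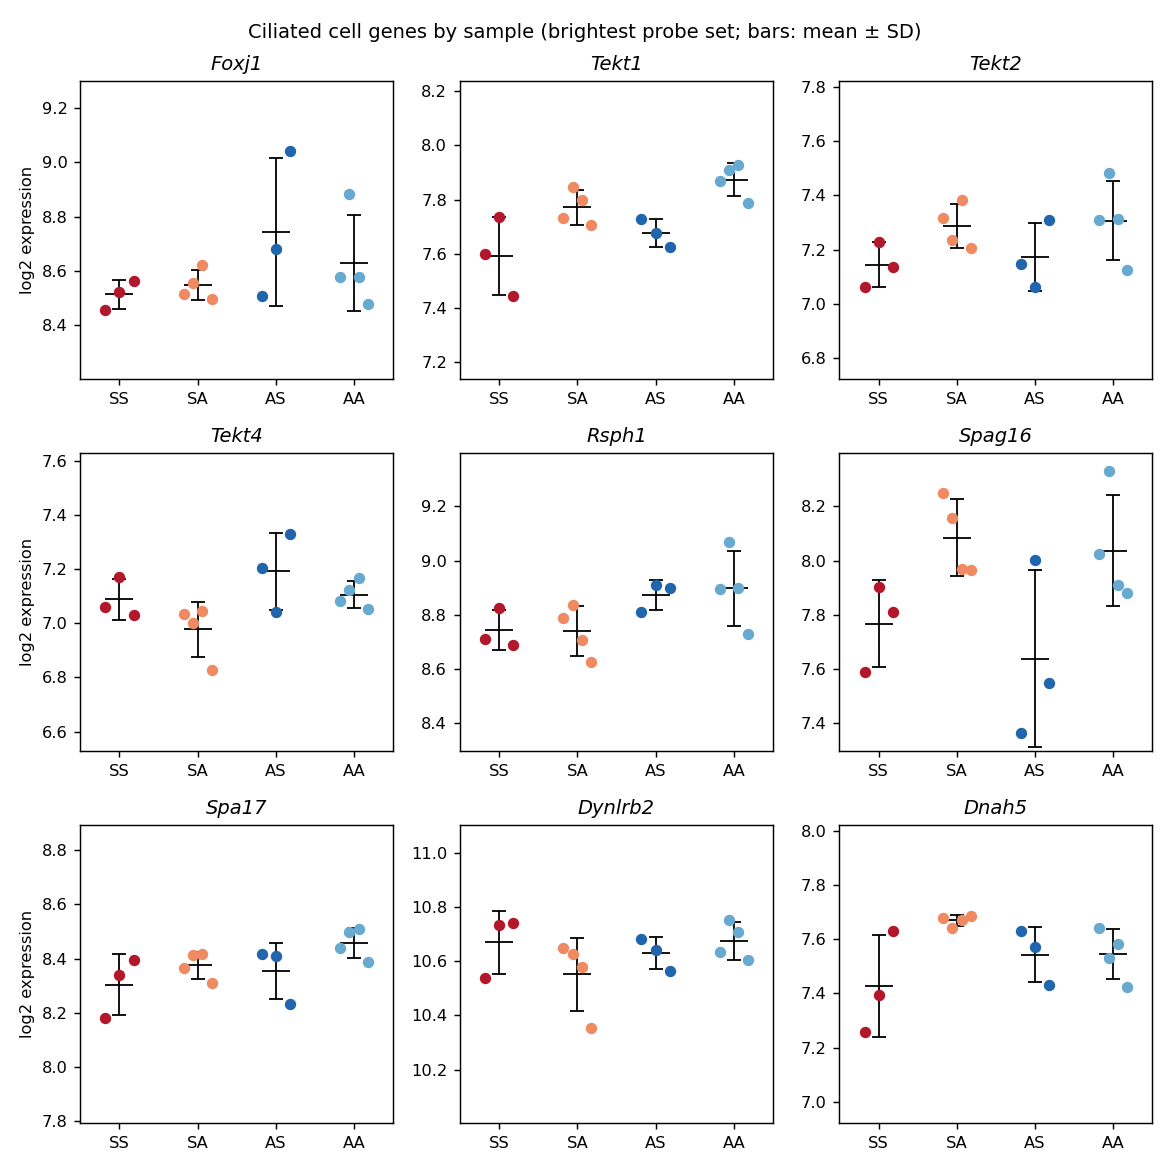
Log2 expression of the 9 ciliated cell genes at their brightest probe set, 1 point per sample, by group (SS, SA, AS, AA), each panel spanning 1.1 log2 units. Horizontal bars are means and vertical bars SD; Tekt1 lay between 7.62 and 7.73 in AS and between 7.79 and 7.93 in AA, and Spag16 had the widest range, 7.37 to 8.33.

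Spag16, a protein of the central pair that helps control the beat, had the largest mean adult effect at its brightest probe set and just missed the threshold. At its brightest probe set the values were 7.59, 7.90 and 7.81 in SS lungs, against 8.25, 8.16, 7.97 and 7.97 in SA lungs. They were 7.37, 8.002 and 7.55 in AS lungs, against 8.02, 8.33, 7.91 and 7.88 in AA lungs. All SS lungs lay below all SA lungs, while AS replicate 2 lay within the AA range and the other 2 AS samples below it. The mean adult effect was -0.36 ± 0.10, or 0.781-fold (limma, unadjusted p = 0.00306, adjusted p = 0.0506, 95% interval -0.57 to -0.14). Without AS replicate 2 it was -0.45 (limma, adjusted p = 0.0123) and without SA replicate 4 it was -0.38 (adjusted p = 0.0460), the 2 of 14 omissions under which it passed. AS minus AA was -0.40 ± 0.14 (limma, adjusted p = 0.149), and it ranged with the sample left out: -0.58 without AS replicate 2 (adjusted p = 0.0433), -0.26 without AS replicate 1 (adjusted p = 0.330) and -0.30 without AA replicate 2 (adjusted p = 0.325). SS minus SA was -0.32 ± 0.14 (limma, adjusted p = 0.325). Spag16 was also the member that varied most between lungs of a group, with a residual SD of 0.213, larger than in 87.3% of probe sets of similar mean, and these values come from 1 of its 4 probe sets.

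Rsph1, part of the head of the radial spoke, differed little with adult smoke and most with smoke before birth. Its values were 8.71, 8.83 and 8.69 in SS lungs and 8.79, 8.84, 8.71 and 8.63 in SA lungs. They were 8.81, 8.91 and 8.90 in AS lungs and 8.90, 9.07, 8.90 and 8.73 in AA lungs. The mean effect of smoke in utero was -0.14 ± 0.06, or 0.905-fold (limma, unadjusted p = 0.0232, adjusted p = 0.326), the only member with an unadjusted p under 0.05 in that comparison, in which 11.9% of all probe sets had one. The mean adult effect was -0.01 ± 0.06, with a 95% interval of -0.13 to 0.11.

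Neither dynein member passed in any comparison. Dnah5, a heavy chain of the outer dynein arm whose loss causes primary ciliary dyskinesia in humans, had 7.26, 7.39 and 7.63 in SS lungs, against 7.68, 7.64, 7.67 and 7.69 in SA lungs. The 4 SA values spanned less than 0.05, and all SS values lay below them, the highest by 0.01. The difference was -0.24 ± 0.09, or 0.846-fold (limma, unadjusted p = 0.0126, adjusted p = 0.197), and -0.16 without the averaged SS replicates 1 and 2 (adjusted p = 0.544). In AS lungs it had 7.63, 7.57 and 7.43, against 7.64, 7.53, 7.58 and 7.42 in AA lungs, a difference of -0.0012 ± 0.09 (limma, adjusted p = 0.995, 95% interval -0.18 to 0.18). The test of the difference between these 2 adult effects gave -0.24 ± 0.12 (limma, unadjusted p = 0.0645, adjusted p = 0.586), so Dnah5 was not shown to respond differently after smoke in utero. Dynlrb2, a dynein light chain of the roadblock type, had 10.54, 10.73 and 10.74 in SS lungs, against 10.65, 10.63, 10.58 and 10.35 in SA lungs. It had 10.68, 10.64 and 10.56 in AS lungs, against 10.63, 10.75, 10.71 and 10.60 in AA lungs. Its adult effects were 0.12 ± 0.08 in SS minus SA and -0.04 ± 0.08 in AS minus AA, and neither passed (limma, adjusted p = 0.552 and 0.783). SS minus SA was 0.05 without SA replicate 4 and 0.185 without the averaged SS replicates 1 and 2.

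Spa17, a sperm protein that is also found in motile cilia and binds the anchors of protein kinase A, had 8.18, 8.34 and 8.395 in SS lungs, against 8.37, 8.41, 8.42 and 8.31 in SA lungs. It had 8.42, 8.41 and 8.23 in AS lungs, against 8.44, 8.497, 8.51 and 8.39 in AA lungs. Its order of group means was SS, AS, SA and AA from low to high, with neighbours overlapping at each step, and SS minus AA was -0.15 ± 0.07 (limma, unadjusted p = 0.0467, adjusted p = 0.476), and -0.09 without the averaged SS replicates 1 and 2.

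**Figure D2:**
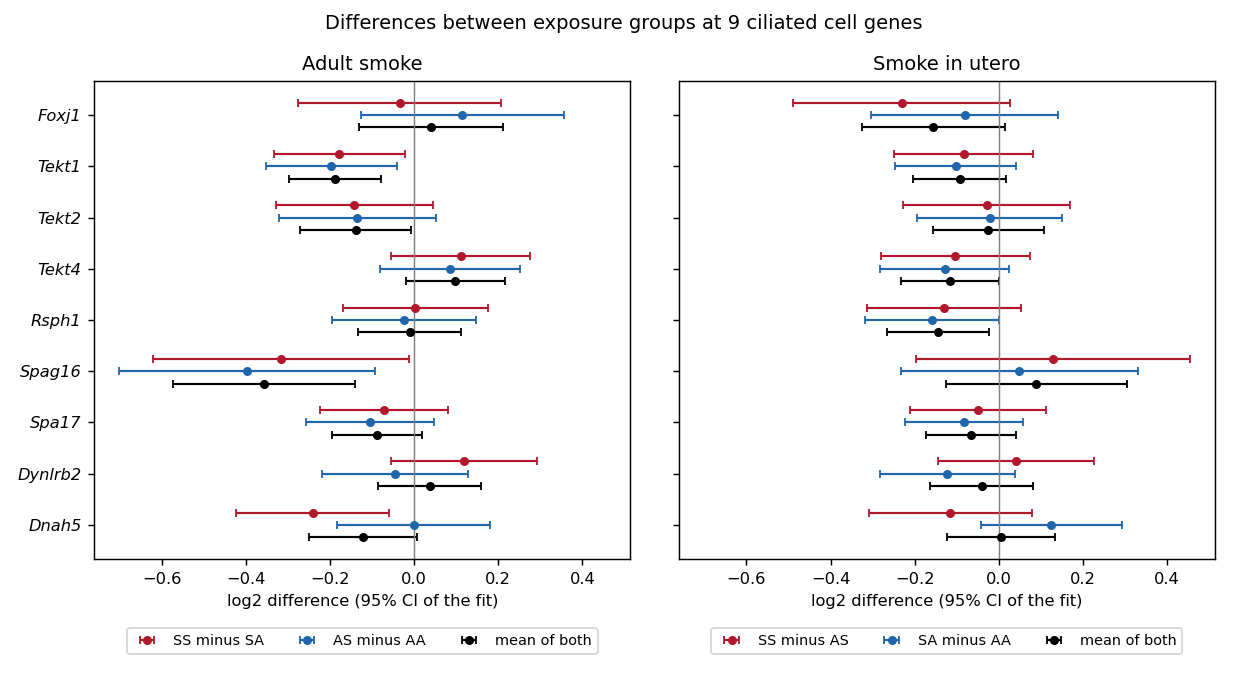
Log2 differences of the 9 genes at their brightest probe set for adult smoke (left: SS minus SA, AS minus AA and their mean) and for smoke in utero (right: SS minus AS, SA minus AA and their mean), with 95% intervals of the fit. Tekt1 and Spag16 lie left of 0 in all 3 adult comparisons, and in the right panel only the mean effect for Rsph1 (-0.14) has an interval that excludes 0.

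Over the set, most differences with adult smoke were small and below 0. In AS minus AA, 0 of 12 probe sets passed the adjusted threshold (limma, 1.55% of all probe sets did), 2 had an unadjusted p under 0.05 (20.3% of all), and 1 was lower without overlap (7.57% of all). Of the 9 genes, 7 were below 0 (45.9% of all named genes were), with a median of -0.04 against 0.02 over all probe sets. In SS minus SA, 0 of 12 passed (limma, 1.64% of all), 3 had an unadjusted p under 0.05 (14.5% of all), 2 were lower without overlap (8.77% of all), and the median was -0.07 against 0.01. The AS minus AA median was -0.02 without AA replicate 2 and -0.08 without AA replicate 4, and the SS minus SA median was -0.0091 without the averaged SS replicates 1 and 2. The median of the mean adult effect was -0.09 against 0.01, with 6 genes below 0 and 3 above (48.4% of all named genes were below). There, 3 of 12 probe sets had an unadjusted p under 0.05 (25% of all). Over the brightest probe sets of all named genes the medians were 0.02 for AS minus AA, -0.0072 for SS minus SA and 0.0046 for the mean adult effect. The shares of probe sets called or without overlap are near those of the whole array.

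Smoke in utero gave similar small medians. In SA minus AA, 0 of 12 passed (limma, 0% of all) and 0 had an unadjusted p under 0.05 (6.23% of all), with a median of -0.08 against 0.00 and 7 genes below 0 (47.7% of all named genes were). In SS minus AS, 0 of 12 passed (limma, 0.968% of all) and 0 had an unadjusted p under 0.05 (13.6% of all), with 0 lower without overlap (9.04% of all) and a median of -0.08 against -0.01. The mean in-utero effect had a median of -0.07 and 0 of 12 past the threshold (limma, 0.284% of all, 1 with an unadjusted p under 0.05). The comparison of both exposures with neither, SS minus AA, gave the largest median, -0.15 against 0.01 over all probe sets and -0.0020 over the brightest probe sets of all named genes. All 9 genes were below 0 (50.8% of all named genes were), from -0.28 (Tekt1) to -0.0039 (Dynlrb2). Again 0 of 12 passed (limma, 0.400% of all), 2 had an unadjusted p under 0.05 (10.3% of all) and 1 was lower without overlap (6.97% of all). No member passed the test of the interaction (limma, 0 of 12, 0.131% of all, 0 with an unadjusted p under 0.05 and 9.11% of all), whose median was 0.03 and changed sign to -0.02 without AA replicate 2. Without the averaged SS replicates 1 and 2 the median was -0.03 for SS minus AS, -0.03 for the mean in-utero effect and -0.09 for SS minus AA, and without AA replicate 4 it was -0.13 for SA minus AA. SS minus AA shares its samples with SS minus SA and AS minus AA, so these medians are not separate evidence.

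Single lungs moved several members at once. Relative to the AA mean, the mean over the 9 genes was -0.23, -0.08 and -0.12 in SS lungs (averaged replicates 1 and 2, then 3 and 4), -0.02, -0.02, -0.04 and -0.15 in SA lungs, -0.12, -0.06 and -0.06 in AS lungs, and -0.01, 0.12, 0.01 and -0.12 in AA lungs. AA replicate 2 was the highest of all 14 samples for Tekt2, Rsph1, Spag16 and Dynlrb2. SA replicate 4 was the lowest for Tekt4, Rsph1 and Dynlrb2 and the highest for Dnah5, and the averaged SS replicates 1 and 2 were the lowest for Foxj1, Spa17 and Dnah5. The SD of this mean within AA was 0.096, and the group means were -0.14 in SS, -0.06 in SA, -0.08 in AS and 0 in AA.

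**Figure D3:**
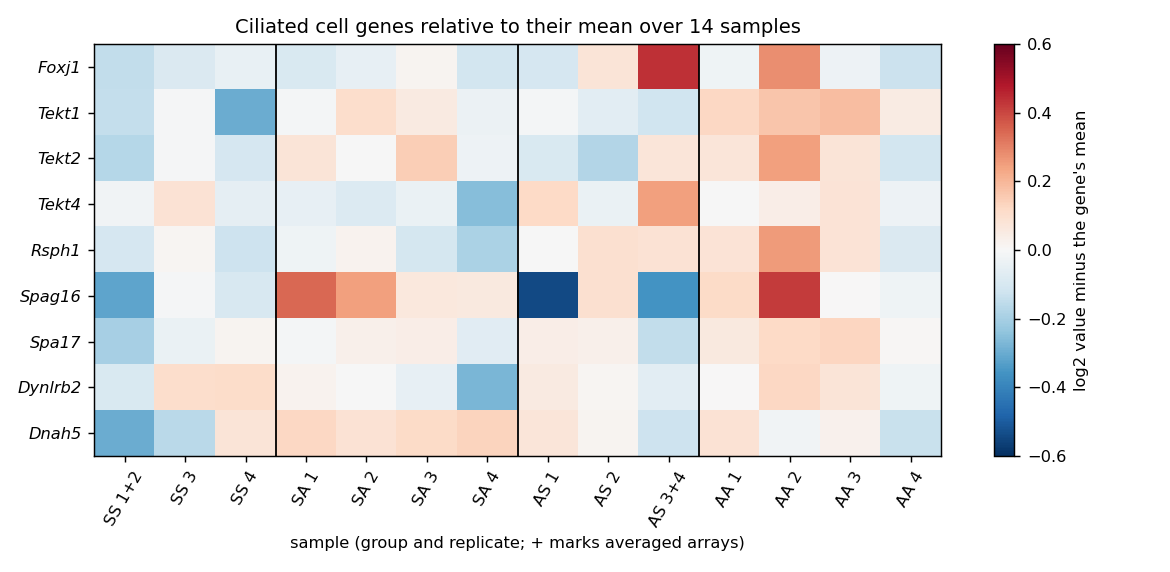
Log2 value of each gene minus its mean over the 14 samples, with samples in columns by group (SS, SA, AS, AA) and red for higher, blue for lower. AA replicate 2 is high for most genes, the averaged SS replicates 1 and 2 are low, and Spag16 has the widest span, with log2 values of 7.37 to 8.33.

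Members varied together only in part. Among the 36 pairs of members the Pearson correlation over the 14 samples was above 0 in 30 pairs and above 0.5 in 12, with a median of 0.354 and a range of -0.457 (Tekt4 with Spag16) to 0.644 (Foxj1 with Rsph1). With the group means removed it was above 0 in 28 pairs, the median was 0.361, and the strongest pairs were Spa17 with Dynlrb2 (0.787), Foxj1 with Tekt2 (0.774), Spa17 with Dnah5 (0.743), Tekt2 with Tekt4 (0.718) and Rsph1 with Spag16 (0.706). These are descriptions: all points share the same 14 hybridisations and their normalization. Pairs of other genes were not measured, so these counts have no background share beside them.

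The genes outside the set whose pattern over the 14 samples was most like the mean of the 9 members were 4430402I18Rik (r = 0.888), Cfap61, a radial spoke protein (r = 0.884), Tbx1 (0.854), B3galt2 (0.853), Cfap65, a protein of the central pair and sperm tail (0.835), Sh3d19 (0.830), 2010315B03Rik (0.823), Fhit (0.823), Calml4 (0.821), Krt23 (0.812), Tmem107, a protein of the ciliary transition zone (0.811), and Mrtfb (0.802). B3galt2 is dim, with a mean of 2.90. Of 147 further cilium genes, 37 were among the 5% of genes with the highest correlation, and their median r was 0.331, against -0.02 over all genes outside the set. The spoke and central pair genes had a median r of 0.447 and the regulators of ciliogenesis 0.04.

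**Figure D4:**
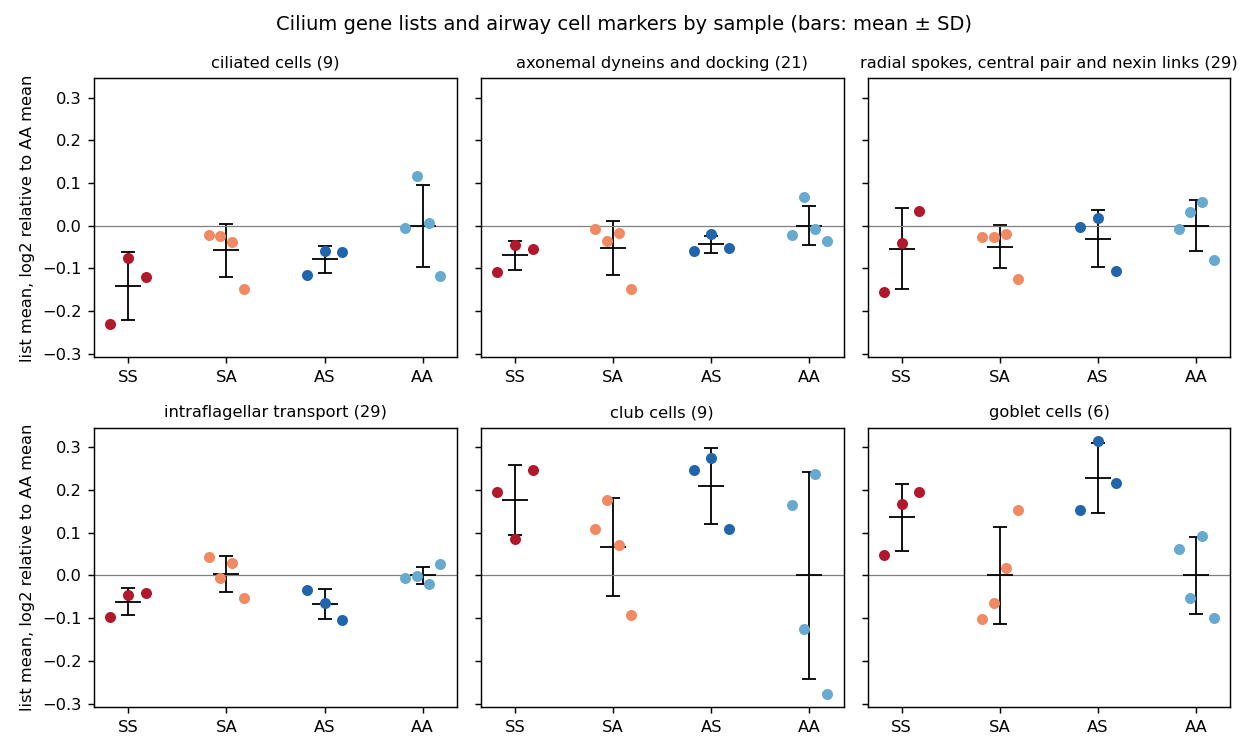
Mean log2 value of gene lists relative to the AA mean, 1 point per sample, by group (SS, SA, AS, AA), with bars for mean and SD and the number of matched genes in each title. The ciliated list spans -0.23 to 0.12, while goblet cell markers lie above 0 in all SS and AS samples and on both sides of 0 in SA and AA.

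The rest of the motile cilium was then read in 6 lists of regulators and structural parts, 118 matched genes at their brightest probe sets. In AS minus AA and in SS minus SA, 0 of 118 passed in either direction (limma), with 11 higher and 7 lower, and 3 higher and 7 lower, at an unadjusted p under 0.05 (20.3% and 14.5% of all probe sets had one in either direction), and medians of -0.02 and -0.01. In the mean adult effect 1 rose and 1 fell, a smaller share of the 118 than the 5.95% of all probe sets past the threshold. E2f5, an E2F factor that takes part in the multiciliated cell programme, rose by 0.23 ± 0.06 or 1.17-fold (limma, adjusted p = 0.0389). It had 9.30, 9.26 and 9.31 in SS lungs, against 9.13, 9.33, 9.01 and 9.17 in SA lungs, and 9.76, 9.53 and 9.44 in AS lungs, against 9.28, 9.23, 9.20 and 9.31 in AA lungs, with AS entirely above AA and SS within the SA range. Wdr63 (now Dnai3), an intermediate chain of inner arm dynein, fell by 0.21 ± 0.06 or 0.866-fold (limma, adjusted p = 0.0494). It had 7.12, 7.02 and 7.15 in SS lungs, against 7.20, 7.38, 7.28 and 7.12 in SA lungs, and 7.00, 7.05 and 6.83 in AS lungs, against 7.21, 7.30, 7.08 and 7.32 in AA lungs. AS lay entirely below AA for Wdr63, and SS overlapped SA. Both calls stood near the threshold in limma. E2f5 passed in 4 of 14 fits that left out 1 sample and lost the call without any SS sample, SA replicate 1 or 3, AS replicate 1 or any AA replicate, with effects of 0.18 to 0.26 over the 14. Wdr63 passed in 3 of 14, without SA replicate 4, AS replicate 2 or AA replicate 3, and lost the call without each other sample and with median centring, quantile normalization or a trended robust variance.

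By role, the dynein arm assembly factors (13 genes) had a median mean adult effect of -0.11. Of them, 5 were lower and 1 higher at an unadjusted p under 0.05 (25% of all probe sets had one in either direction). None passed the adjusted threshold (limma, 5.95% of all probe sets did). The axonemal dyneins and docking proteins (21 genes) had -0.04, the spokes, central pair and nexin links (29 genes) -0.02, the tektins and microtubule inner proteins (15 genes) 0.02, the other ciliated cell markers (24 genes) -0.01 and the regulators of ciliogenesis (16 genes) 0.02. Intraflagellar transport genes, which build primary as well as motile cilia and so are not particular to ciliated cells, had 22 of 29 below 0 in AS minus AA (45.9% of all named genes were) and 22 of 29 in SS minus SA (52.4% of all). In either, 0 passed the threshold (limma, 1.55% and 1.64% of all probe sets did). In each, 3 were lower at an unadjusted p under 0.05, where 20.3% and 14.5% of all probe sets had one in either direction. Ift20, a transport subunit also found at the Golgi, had -0.39 ± 0.16 in SS minus SA (limma, adjusted p = 0.268).

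For smoke in utero, 0 of the 118 genes passed in SA minus AA, in SS minus AS or in their mean (limma). At an unadjusted p under 0.05 there were 6, 11 and 16 of the 118, each of them lower, where 6.23%, 13.6% and 11.9% of all probe sets had such a p in either direction. In SA minus AA and SS minus AS these were smaller shares than over the array, and in the mean a slightly larger one. The array's share in the lower direction alone was not counted. In SA minus AA, 82 of 118 were below 0 (47.7% of all named genes were), with a median of -0.04. The largest values there were 1700007K13Rik (now Pierce1), a microtubule inner protein that docks outer dynein arms, at -0.37 ± 0.08 (limma, adjusted p = 0.470), and Dnah2, an inner arm heavy chain, at -0.28 ± 0.08 (adjusted p = 0.664). 1700007K13Rik had 8.67, 8.77, 8.97 and 8.84 in SA lungs, against 9.07, 9.28, 9.23 and 9.14 in AA lungs, with no overlap. In SS minus AS, Rfx2, an RFX factor that reads the X-box, had -0.43 ± 0.13 (limma, adjusted p = 0.135) and Myb, an early factor of multiciliogenesis, -0.38 ± 0.12 (adjusted p = 0.172). Rfx2 had 7.11, 7.22 and 7.01 in SS lungs, against 7.48, 7.32 and 7.83 in AS lungs, without overlap, and the highest AS value came again from the averaged replicates 3 and 4.

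In SS and AS lungs the mean over markers of the secretory cells of the same airways lay above the AA level, where the mean over the ciliated genes lay below it. The ciliated mean also lay below it in SA lungs, which had air as adults. Relative to the AA mean it was -0.14 in SS, -0.06 in SA and -0.08 in AS, with an SD of 0.096 in AA lungs. Relative to the AA mean, the club cell list (9 genes) averaged 0.18 in SS, 0.07 in SA, 0.21 in AS and 0.00 ± 0.24 (SD) in AA lungs, and the goblet cell list (6 genes) 0.14 in SS, 0.00 in SA, 0.23 in AS and 0.00 ± 0.09 (SD) in AA lungs. The highest AA lung reached 0.24 for the club list. The club median was smaller than these means, 0.03 in AS minus AA and 0.03 in SS minus AA. In SA minus AA, 5 of 9 club genes and 3 of 6 goblet genes were below 0. In AS minus AA, Scgb3a1 (0.89) and Muc5ac (0.50) passed (limma, adjusted p = 0.0366 and 0.00368). In SS minus SA, 0 of 9 club and 0 of 6 goblet genes did. When 1 sample was left out, Scgb3a1 kept the AS minus AA call in 7 of 14 fits and Muc5ac in 14. Each kept it in 8 of 9 other settings. In the mean adult effect the secretory genes Scgb3a1 (0.72), Muc5ac (0.34) and Muc5b (0.44) rose (limma, adjusted p = 0.00999, 0.00223 and 0.0261). The Muc5b call was lost without SS replicate 3, SS replicate 4 or the averaged AS replicates 3 and 4 (adjusted p of up to 0.0708). In that effect 1 of 9 club genes passed, with a list median of 0.05, and 2 of 6 goblet genes, with a median of 0.19, beside 1 of 9 ciliated genes and a median of -0.09. Over the whole array 5.95% of probe sets passed there, and lists this short cannot be told from that share by 1 gene. Of 5 basal cell markers, 5 were above 0 and 0 passed. The AT2 list (9 genes) had a median of 0.02, and the AT1 list (8 genes) of -0.01. SA replicate 4, lowest for 3 members and highest for Dnah5, was also the highest sample for smooth muscle (0.54) and erythroid markers (2.15, 3 genes), and the AS averaged replicates 3 and 4, highest for Foxj1 and Tekt4, had the highest AT2 mean (0.19). Their part in the members' values was not tested beyond leaving those samples out.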

How the data were processed

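The authors deposited log2 expression values, 1 for each probe set on each array, with a range of 2.40 to 15.1. How the background was corrected and the arrays normalized and summarised is not stated by these sources, and per the submitters' processing notes the only tool named is limma, without a version. Of 45101 probe sets, 64 controls were left out. Symbols came from the platform annotation, and 34945 probe sets had exactly 1. Near-identical arrays (AS replicates 3 and 4, SS replicates 1 and 2) were averaged. A mean per group was fitted to all 45037 probe sets in 14 samples using lmFit, contrasts.fit and eBayes of limma 3.58.1 (R 4.3.3; 10 residual degrees of freedom), with two-sided p-values given the Benjamini-Hochberg adjustment across every probe set of a comparison and a threshold of 0.05. The main effects are means of 2 group differences. The fit was run on simulated data whose shifts were larger than any member difference in the main fit. Whether it finds differences as small as those of the members was not tested. A value after ± is the fit's standard error, or an SD where so named, and the number of arrays limits the precision.

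The members and lists were chosen with earlier results of these data known, so no list was tested. All members are named. In the cilium lists, genes past the threshold were named (up to 5 each way), otherwise the 2 largest changes where space allowed, and of the cell type lists the genes past the threshold. Cilium and cell type lists held 227 genes besides the members, of which 199 were matched, some under older symbols. The alternatives were separate arrays, a replicate block, 2-group fits, array weights, median centring, quantile normalization, a floor on dim probe sets, 1 probe set per gene, a trended robust variance and leaving out each sample.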

Additional observations from a re-analysis of the deposited data

Results flagged for a closer look

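Of 24 sets of 4 lungs (12 probe sets in AA and in SA), 1 held a sample far from the others. At a dim Spag16 probe set, SA replicate 1 had 3.476, while the other SA lungs had 3.86 to 3.917. Chance alone flags about 1 in 20 such sets.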

How the results depend on the processing

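Of the called results (Tekt1, E2f5, Wdr63, Scgb3a1, Muc5ac and Muc5b), none changed direction under the alternatives run. For the 5 of these genes outside the member set, the alternatives were added after seeing the data. The count of member probe sets past the threshold was 0 in every comparison and alternative, with these exceptions. For AS minus AA it was 1 (Spag16) with all 16 arrays as separate samples and the replicate block, and 0 to 1 leaving out 1 sample. For the mean adult effect, with 1 as reported (Tekt1), it was 2 (Tekt1 and Spag16) with 16 separate arrays without the block, 2 with 16 arrays and the replicate block, 2 with array weights, 2 with only probe sets averaging at least 6, 2 with 1 probe set per gene, 0 with median centring, 0 with quantile normalization, 1 (Spag16 in place of Tekt1) with a trended robust variance, and 0 to 2 leaving out 1 sample. The cause was not tested. Medians over the 9 genes moved by less than the residual SD of 0.0732 between single samples. That SD is larger than the medians for AS minus AA, SS minus SA, the interaction and in-utero smoke. It is close to the other medians except that of SS minus AA. Leaving out 1 sample gave -0.08 to -0.02 for AS minus AA, -0.105 to -0.0091 for SS minus SA, -0.13 to -0.06 for SA minus AA, -0.10 to -0.03 for SS minus AS, -0.18 to -0.09 for SS minus AA, -0.02 to 0.05 for the interaction, -0.11 to -0.06 for adult and -0.08 to -0.03 for in-utero smoke. The replicate numbers mark no stated pairing: same-numbered arrays of different groups correlated from -0.157 to 0.251, with 8 of 24 pairs above 0.1 and a median of 0.027. The 72 pairs with different numbers ranged from -0.297 to 0.311, with a median of -0.0183. Over all probe sets, the count past the threshold moved by over 1.5 times in these cases. With 16 separate arrays (without the block, then with it) it was 3565 and 3761 for AS minus AA (699 as reported), 1345 and 1268 for SS minus SA (737), 2214 and 2364 for SS minus AS (436), 406 and 431 for SS minus AA (180), 330 and 529 for the interaction (59), 5771 and 5703 for the mean adult effect (2680) and 511 and 463 for the mean in-utero effect (128). With array weights it was 2154 for SS minus SA, 1181 for SS minus AS, 792 for SS minus AA, 205 for the interaction, 4713 for adult and 459 for in-utero smoke. Fits of the 2 groups alone gave 47 for AS minus AA and 131 for SS minus AS, quantile normalization and the robust variance 89 each for the interaction, and the floor on dim probe sets 201 for in-utero smoke. With 1 probe set per gene, where fewer are tested, it was 179 for AS minus AA, 470 for SS minus SA, 134 for SS minus AS, 27 for the interaction, 1500 for adult and 57 for in-utero smoke. Leaving out 1 sample raised it to 90, 105 and 115 for the interaction (without SA replicate 1, the averaged AS replicates 3 and 4, and AS replicate 1) and to 279 for in-utero smoke (without the averaged AS replicates 3 and 4), and otherwise gave as few as 185, 171, 136, 34, 23, 1032 and 32 in the order of comparisons first given. Counting near-identical arrays separately treats them as independent lungs. Signal over background is not known for these values, and the number of lungs limits differences of the size seen here.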
